A study of Mus musculus with 10 samples.

Results

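RNA-seq counts of 10 antioxidant defence genes were examined in mouse erythroid progenitors that had lost 1 allele of Ddx41, 1 allele of Trp53, both or neither. The genes were taken by symbol from the deposited count table, from a list drawn up with earlier results of these data known: Prdx2, Cat, Gpx1, Gpx4, Gclm, Sod1, Sod2, Nfe2l2, Nqo1 and Hmox1. These are 10 of the 24421 genes of the table, and all 10 passed the filter on low counts that left 11846 genes for testing. By edgeR's quasi-likelihood test, 0 of the 10 were called in any of 8 comparisons of the genotypes, and for all but Hmox1 the 95% intervals kept every difference under 1.5-fold. Hmox1, the gene of heme oxygenase 1, varied most between mice and followed the summed macrophage markers of each library.

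Red cell precursors make hemoglobin at a high rate, and iron, heme and oxygen together yield superoxide and hydrogen peroxide. Superoxide dismutases turn superoxide into hydrogen peroxide, which catalase, glutathione peroxidases and peroxiredoxins then remove, the latter groups at the expense of glutathione and thioredoxin. The transcription factor NRF2, encoded by Nfe2l2, is held down by KEAP1 and, once released, binds antioxidant response elements with small MAF partners, while BACH proteins compete for the same elements.

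Lethally irradiated BoyJ recipients had been given 1000000 bone marrow mononuclear cells from donors with Rosa-CreERT2, a tamoxifen-inducible Cre expressed from a ubiquitous promoter. All groups, the Ddx41+/+ Trp53+/+ controls included, carried Rosa-CreERT2 and received 1 mg of tamoxifen a day in 2 rounds of 5 days, with 2 days between the rounds. At 8 weeks after transplantation, about 100000 CD71+Ter119+ cells (R2), the stage that carries both the transferrin receptor and the erythroid antigen Ter119, were sorted from each mouse. The groups were Ddx41+/+ Trp53+/+ (3 mice: 10, 11 and 12), Ddx41+/- Trp53+/+ (2 mice: 32 and 34), Ddx41+/+ Trp53+/- (3 mice: 22, 23 and 24) and Ddx41+/- Trp53+/- (2 mice: 46 and 47), where Ddx41+/- stands for donors with 1 floxed allele. The cells were donor marrow in an irradiated host, and neither the sex nor the age of the animals is given in the sources used here. The labels do not say whether recipients of a genotype shared a donor, so the p-values measure the spread between recipients.

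The libraries held 7866648 to 20283930 counts. Within a genotype, every pair of libraries differed by more than sampling noise (chi-square per degree of freedom of 6.35 to 16.2), so each mouse was counted as 1 replicate. Levels are given as CPM, the counts per 1000000 counts of a library total scaled by the TMM method. Over both genotypes of the other gene, Ddx41 was lower in Ddx41+/- cells (log2 fold change −0.70, SE 0.108, adjusted p = 0.0173), and Trp53 was lower in Trp53+/- cells (−0.48, SE 0.069, adjusted p = 0.00355). By the same edgeR test, Ddx41 had an adjusted p of 0.0887 with Trp53+/+ and 0.177 with Trp53+/-. Trp53 had one of 0.0327 with Ddx41+/+ and 0.063 with Ddx41+/-. The Trp53 difference was under 1.5-fold pooled (1.391) and with Ddx41+/+ (1.342). A gene with 1 allele lost could thus miss the limits for a call used below, an adjusted p under 0.05 and a fold change over 1.5. Tfrc, the gene of CD71 on erythroid precursors, was at 2692 to 3458 CPM in all libraries. Adult globin genes were nearly absent from the table, with Hbb-bt at 0 in every library and Hbb-bs, Hba-a1 and Hba-a2 at no more than 17, 21 and 4 counts. Markers of other cells were also counted: neutrophil and monocyte markers summed to 5857 to 9724 CPM, macrophage markers to 274 to 625.5 CPM and B cell markers to 49.23 to 214.9 CPM.

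The promoters were searched on both strands for the letters of the antioxidant response element, TGACNNNGC, and the stretches that held them are shown because NRF2, its partners and its competitors recognise such letters. RefSeq promoters on GRCm38.p6, from 250 bases before a gene's start to 50 after it, were found for 9 members, with 12 promoters in all. No promoter was found for Hmox1, which was therefore not searched. A match was found in 3 of the 12 (25%), of Gclm, Sod1 and Nfe2l2, and in 12.4% of all 32851 promoters. Capitals mark the 9 matched letters, which read GCNNNGTCA where the match is on the other strand, and each stretch is written along its gene.
Gclm, chr3:122245397-122245457, plus strand, first capital 134 bases before the start: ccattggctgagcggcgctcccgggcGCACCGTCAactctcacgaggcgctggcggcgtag
Sod1, chr16:90220680-90220740, plus strand, first capital 56 bases before the start: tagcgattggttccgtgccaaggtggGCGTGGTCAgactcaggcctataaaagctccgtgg
Nfe2l2, chr2:75704869-75704913, minus strand, first capital 240 bases before the start: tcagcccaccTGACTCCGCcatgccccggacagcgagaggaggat
The matches describe these windows only.

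The members spanned a wide range of levels. Compared per length of transcript, as CPM per kilobase averaged over the 10 mice, the order was Gpx1 (6038), Prdx2 (2294), Sod1 (504.2), Gpx4 (300.1), Cat (255.4), Gclm (137.7), Hmox1 (73.74), Nqo1 (41.08), Nfe2l2 (27.41) and Sod2 (10.04). No neighbours in this order overlapped in any mouse: each gene was above the next one in 10 of 10 mice. The lengths are those of the main annotated transcript of each gene in GENCODE M21, and which isoforms the cells used was not measured. The 10 members together took 1.17% to 1.347% of the counts of a library.

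Hydrogen peroxide is removed by Prdx2, Gpx1, Cat and, for lipid peroxides, Gpx4. Prdx2 encodes a thioredoxin-dependent peroxiredoxin that is abundant in red cells (chromosome 8, 84969587 to 84974834; GRCm38 with GENCODE M21, as for all positions of genes). Prdx2 was at 3964, 3870 and 3720 CPM in the Ddx41+/+ Trp53+/+ mice and at 3459 and 3534 CPM in the Ddx41+/- Trp53+/+ mice. With Trp53+/-, Prdx2 was at 3851, 3551 and 3827 CPM with Ddx41+/+ and at 3533 and 3671 CPM with Ddx41+/-. With Trp53+/+ both Ddx41+/- mice were below all Ddx41+/+ mice, whereas with Trp53+/- the genotypes overlapped. The mean with Trp53+/+ was 3497 ± 52.6 CPM (SD, n = 2) in Ddx41+/- cells and 3851 ± 123 CPM (SD, n = 3) in Ddx41+/+ cells. The log2 fold change of −0.14 (SE 0.0627, interval −0.27 to −0.01) had an unadjusted p of 0.0407 and an adjusted p of 0.492 by edgeR's quasi-likelihood test. The exons of Prdx2 overlap those of Junb over 173 bases and those of Rnaseh2a over 176 bases on the opposite strand, and 17.4% of its 75-base stretches occur in transcripts of other genes. The strand setting of the counting is not given in the sources used here, so reads from these overlaps cannot be assigned with certainty.

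Gpx1 (chromosome 9, 108338903 to 108340343), the cytosolic selenium-dependent glutathione peroxidase, had the highest level per length of the 10 genes. Gpx1 was at 6907, 5865 and 7035 CPM in Ddx41+/+ Trp53+/+ mice, 5702 and 6523 in Ddx41+/- Trp53+/+ mice, 6872, 6433 and 6711 in Ddx41+/+ Trp53+/- mice, and 6294 and 6387 in Ddx41+/- Trp53+/- mice. With Trp53+/- both Ddx41+/- mice were below all Ddx41+/+ mice, though not with raw library totals in place of TMM-scaled ones, and with Trp53+/+ the genotypes overlapped. The log2 fold change with Ddx41+/- was −0.11 (SE 0.0801, adjusted p = 0.724) with Trp53+/+ and −0.07 (SE 0.08, adjusted p = 1) with Trp53+/-. Across the 10 mice, Gpx1 followed the summed level of the late erythroid markers (Pearson's r 0.89, Spearman's rho 0.915; 0.9 for deviations from the genotype means and 0.813 without the 2 mice farthest from the median), a sum that ran from 41140 to 47260 CPM and of which Slc4a1 alone made 25470 to 30510 CPM. For deviations from the genotype means, Gpx1 also had an r of 0.932 with the B cell marker sum and 0.82 with that of T and NK cells. It was 0.796 with the macrophage sum and 0.0958 with the neutrophil and monocyte sum. Over the 10 mice as they are, these r were 0.297, 0.389, 0.294 and −0.0104, in the same order. These are descriptions across 10 libraries that share scaling to their totals. The parts of erythroid maturation and of other cells in the level of Gpx1 were not tested.

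Cat (chromosome 2, 103453849 to 103485160) encodes catalase. Cat was at 679.8, 554.8 and 654.8 CPM in Ddx41+/+ Trp53+/+ mice, 670.3 and 689.9 in Ddx41+/- Trp53+/+ mice, 649.3, 679 and 715.6 in Ddx41+/+ Trp53+/- mice, and 695.9 and 683.9 in Ddx41+/- Trp53+/- mice. The lowest value was that of control mouse 11, and the other 9 mice lay between 649.3 and 715.6 CPM. Mouse 11 also had the lowest sum of B cell markers (49.23 CPM), and over the 10 mice Cat had an r of 0.86 with that sum, of 0.676 without the 2 mice farthest from the median. The same mouse was lowest for T and NK cell (4.082 CPM), early erythroid progenitor (31.68 CPM) and late erythroid markers (41140 CPM). With these sums Cat had an r of 0.846, 0.765 and 0.403, and of 0.251, 0.262 and −0.0656 without the 2 farthest mice. The parts of other cells and of erythroid stage in the level of Cat were not tested. Both Ddx41+/- Trp53+/- mice lay above all Ddx41+/+ Trp53+/+ mice, with a log2 fold change of 0.13 (SE 0.0815, adjusted p = 0.576). With raw library totals these groups overlapped, at 710.1 and 679.4 CPM against 685.8, 562.9 and 648.8 CPM.

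Gpx4 (chromosome 10, 80047166 to 80056439), the peroxidase that reduces lipid hydroperoxides in membranes and guards against ferroptosis, was at 307.3, 304.2 and 280.7 CPM in Ddx41+/+ Trp53+/+ mice and 280.7 and 298.8 CPM in Ddx41+/- Trp53+/+ mice. With Trp53+/-, Gpx4 was at 300.7, 275 and 277.7 CPM with Ddx41+/+ and 269 and 284 CPM with Ddx41+/-. The groups overlapped in every comparison, except that with raw library totals Gpx4 was lower in both Ddx41+/- Trp53+/- mice than in both Ddx41+/- Trp53+/+ mice. Its counts carry a limit that the other members do not share to this degree: 62.4% of the 75-base stretches of Gpx4 occur in other transcripts, most in the pseudogene Gpx4-ps2, so the counting may have split or dropped reads of this gene.

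Gclm (chromosome 3, 122245557 to 122270732) encodes the modifier subunit of glutamate-cysteine ligase, which makes the first step of glutathione synthesis. Gclm was at 782.3, 776.9 and 778.8 CPM in Ddx41+/+ Trp53+/+ mice and at 722.8 and 742.3 CPM in Ddx41+/- Trp53+/+ mice. With Trp53+/-, Gclm was at 799.1, 794.6 and 787.2 CPM with Ddx41+/+ and at 738.5 and 773.6 CPM with Ddx41+/-. All 4 Ddx41+/- mice lay below all 6 Ddx41+/+ mice, with means of 744.3 ± 21.3 CPM (SD, n = 4) for the former and 786.5 ± 8.86 CPM (SD, n = 6) for the latter. The pooled log2 fold change was −0.08 (SE 0.0414, interval −0.17 to 0.01), with an unadjusted p of 0.0719 and an adjusted p of 0.599. The groups of this comparison did not overlap for 1.57% of all tested genes. The pooled difference amounted to −5.37%, and Gclm was also the member with the smallest spread between mice.

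Sod1 and Sod2 encode the copper-zinc dismutase of the cytosol and the manganese dismutase of mitochondria. Sod1 (chromosome 16, 90220754 to 90226329) was at 342.9, 332.6 and 284.3 CPM in Ddx41+/+ Trp53+/+ mice, 291.3 and 337.5 in Ddx41+/- Trp53+/+ mice, 346.3, 333.3 and 323.6 in Ddx41+/+ Trp53+/- mice, and 318.7 and 321.4 in Ddx41+/- Trp53+/- mice. Sod2 (chromosome 17, 13006846 to 13040063) was at 58.75, 61.08 and 54.51 CPM in Ddx41+/+ Trp53+/+ mice, 57.54 and 59.57 in Ddx41+/- Trp53+/+ mice, 61.3, 60.2 and 61.7 in Ddx41+/+ Trp53+/- mice, and 55.83 and 57.93 in Ddx41+/- Trp53+/- mice. For both genes the Ddx41+/- mice with Trp53+/- lay below the Ddx41+/+ mice with Trp53+/-, and the groups overlapped in the other comparisons. With raw library totals Sod1 overlapped there as well. The log2 fold changes there were −0.06 for Sod1 (SE 0.087) and −0.10 for Sod2 (SE 0.0902), each with an adjusted p of 1. A part of the Sod1 transcript, 12.2% of its 75-base stretches, also occurs in Gm8566.

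Nfe2l2 (chromosome 2, 75675513 to 75704641), the gene of NRF2, was at 76.47, 69.98 and 67.86 CPM in Ddx41+/+ Trp53+/+ mice, 72.45 and 64.26 in Ddx41+/- Trp53+/+ mice, 69.2, 63.84 and 64.32 in Ddx41+/+ Trp53+/- mice, and 64.95 and 65.1 in Ddx41+/- Trp53+/- mice. NRF2 is regulated largely through protein stability, so its mRNA level does not report its activity. Nqo1 (chromosome 8, 107388225 to 107403206), a quinone reductase and a widely used NRF2 target, was at 63.18, 71.58 and 67.93 CPM in Ddx41+/+ Trp53+/+ mice, 56.39 and 66.42 in Ddx41+/- Trp53+/+ mice, 66.4, 56.67 and 66.07 in Ddx41+/+ Trp53+/- mice, and 63.44 and 59.94 in Ddx41+/- Trp53+/- mice. Both genes overlapped between the genotypes that differ in 1 gene, except that with raw library totals Nfe2l2 was lower in all Ddx41+/+ Trp53+/- mice than in all Ddx41+/+ Trp53+/+ mice. Against the controls, both Ddx41+/- Trp53+/- mice had less Nfe2l2 than every control mouse (log2 fold change −0.14, SE 0.0929, adjusted p = 0.621).

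Hmox1 (chromosome 8, 75093621 to 75100589) encodes the inducible heme oxygenase, which breaks heme down to biliverdin, iron and carbon monoxide, and which macrophages that recycle red cells express strongly. Hmox1 was at 170.6, 95.98 and 132.2 CPM in Ddx41+/+ Trp53+/+ mice and at 94.1 and 141.1 CPM in Ddx41+/- Trp53+/+ mice. With Trp53+/-, Hmox1 was at 104, 94.87 and 74.86 CPM with Ddx41+/+ and at 153.6 and 95.66 CPM with Ddx41+/-. The highest mouse was 2.279 times the lowest, and no 2 genotypes that differ in 1 gene were free of overlap.

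**Figure D1:**
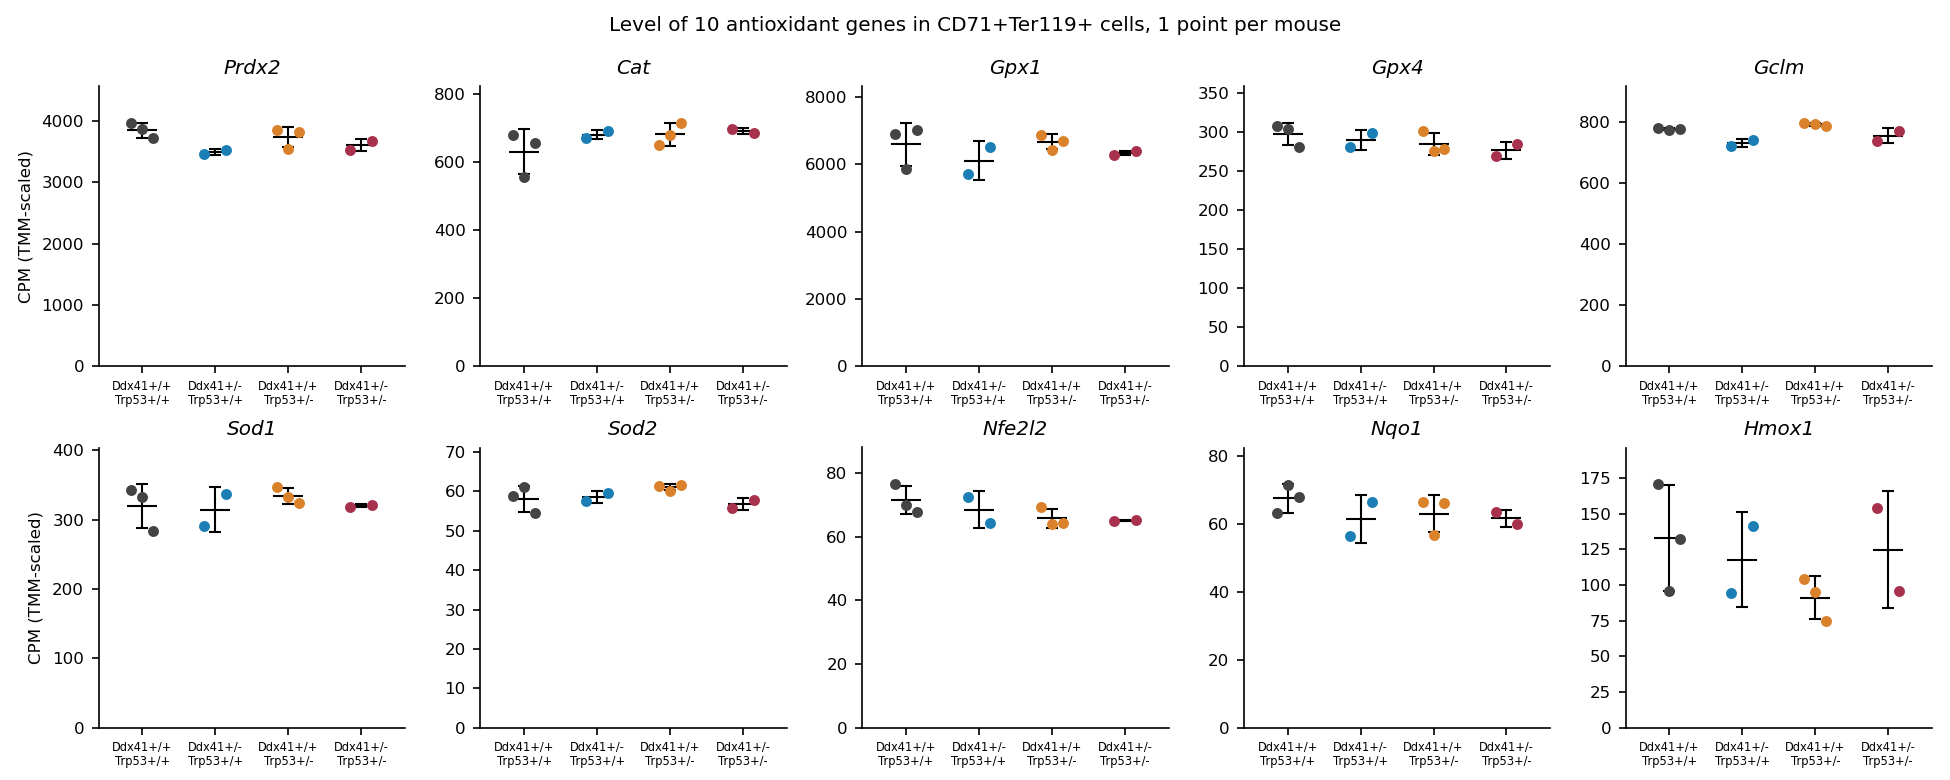
Level of each antioxidant gene in CPM (vertical axes from 0, 1 scale per gene) by genotype, with 1 point per mouse and black bars for the mean and SD. Hmox1 scatters from 74.86 to 170.6 CPM, while Gclm stays between 722.8 and 799.1 CPM with all Ddx41+/- mice below all Ddx41+/+ mice.

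The effect of Ddx41 heterozygosity with intact Trp53 was the study's first question. With Trp53+/+, 0 of the 10 members were called between Ddx41+/- and Ddx41+/+ at an adjusted p under 0.05 and a fold change over 1.5 (edgeR's quasi-likelihood test), against 0.54% of all tested genes. Prdx2 was the 1 member with an unadjusted p under 0.05, as had 9.64% of all tested genes. The groups did not overlap for 2 of 10 members (Prdx2 and Gclm, both lower), against 24.9% of tested genes. With raw library totals there were 3 (Cat higher as well), against 24.7%. Apart from Hmox1, the intervals of the members ran at their widest from −22.7% to 21.8%. With Trp53+/-, 0 of 10 members were called between the Ddx41 genotypes, against 0.0422% of tested genes, and 0 had an unadjusted p under 0.05, against 3.75%. There the groups did not overlap for 4 members (Gpx1, Gclm, Sod1 and Sod2, all lower), against 20% of tested genes. With raw library totals there were 2 (Gclm and Sod2), against 19.8%.

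The effect of Trp53 heterozygosity was asked in the same way. With Ddx41+/+, 0 of 10 members were called between Trp53+/- and Trp53+/+, against 0.912% of tested genes, and 1 (Hmox1) had an unadjusted p under 0.05, against 9.44%. Gclm was the 1 member without overlap, slightly higher in Trp53+/- mice (log2 fold change 0.03, SE 0.0548, adjusted p = 0.931), against 14.1% of tested genes. With raw library totals Gclm overlapped and turned slightly lower (means of 778.6 and 783 CPM), and the 1 member without overlap was Nfe2l2, lower, against 14.4%. With Ddx41+/-, 0 members were called (background 0.169%), 0 had an unadjusted p under 0.05 (background 5.41%), and all 10 overlapped between the 2 mice of each group, whereas the groups did not overlap for 37.3% of tested genes. With raw library totals 4 members did not overlap (Prdx2 and Gclm higher, Gpx4 and Sod2 lower), against 38.2%.

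The cells that had lost 1 allele of Ddx41 and 1 allele of Trp53, described below as having both alleles lost, were also set against the controls. Between Ddx41+/- Trp53+/- and Ddx41+/+ Trp53+/+ cells, 0 of 10 members were called, against 1.11% of tested genes, and 0 had an unadjusted p under 0.05, against 11.6%. The groups did not overlap for 4 members (Prdx2, Gclm and Nfe2l2 lower, Cat higher), against 28.3% of tested genes, and for 3 with raw library totals (all but Cat), against 28.1%. These comparisons share groups of mice with the others and are not independent of them.

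Pooled over the genotypes of the other gene, the intervals were narrower. For Ddx41, 0 of 10 members were called, against 0.11% of tested genes, and 1 (Prdx2, log2 fold change −0.10, SE 0.0438, adjusted p = 0.535) had an unadjusted p under 0.05, against 8.98%. In all, 8 members had a lower and 2 a higher estimate in Ddx41+/- cells, and the median log2 fold change of the 10 was −0.046, beside 0.00044 over all tested genes. Apart from Hmox1 the intervals lay between −15.4% and 13.7%. For Trp53, 0 of 10 members were called, against 0.287% of tested genes, and 0 had an unadjusted p under 0.05, against 11.2%. No member was free of overlap, against 2.01% of tested genes that were. There 5 estimates were higher and 5 lower, and apart from Hmox1 the intervals lay between −15.0% and 14.5%.

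Whether the Ddx41 effect differed between the Trp53 genotypes was tested as an interaction, for which 0 of 10 members were called, against 0.0675% of tested genes, and 0 had an unadjusted p under 0.05, against 5.01%. Hmox1 had the largest estimate of the members. Its log2 fold change with Ddx41+/- was −0.19 (SE 0.226, adjusted p = 0.866) with Trp53+/+ and 0.45 (SE 0.223, adjusted p = 1) with Trp53+/-, and the difference was 0.64 (SE 0.318, interval −0.03 to 1.31, unadjusted p 0.0612, adjusted p = 1). Between the Trp53 genotypes with Ddx41+/+, Hmox1 differed by −0.55 (SE 0.201, interval −0.97 to −0.12, unadjusted p 0.0153, adjusted p = 0.333), from 132.9 ± 37.3 CPM (SD, n = 3) to 91.24 ± 14.9 CPM (SD, n = 3). With each mouse left out in turn this difference ran from −0.74 to −0.32 and the interaction from 0.26 to 0.96. Without a filter on low counts the interaction of Hmox1 was called (adjusted p = 0.00108). The 95% intervals of Hmox1 stayed within 1.5-fold in the comparison of Ddx41+/- Trp53+/- cells with the controls and in the pooled Ddx41 comparison, and reached past it in the other 6.

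**Figure D2:**
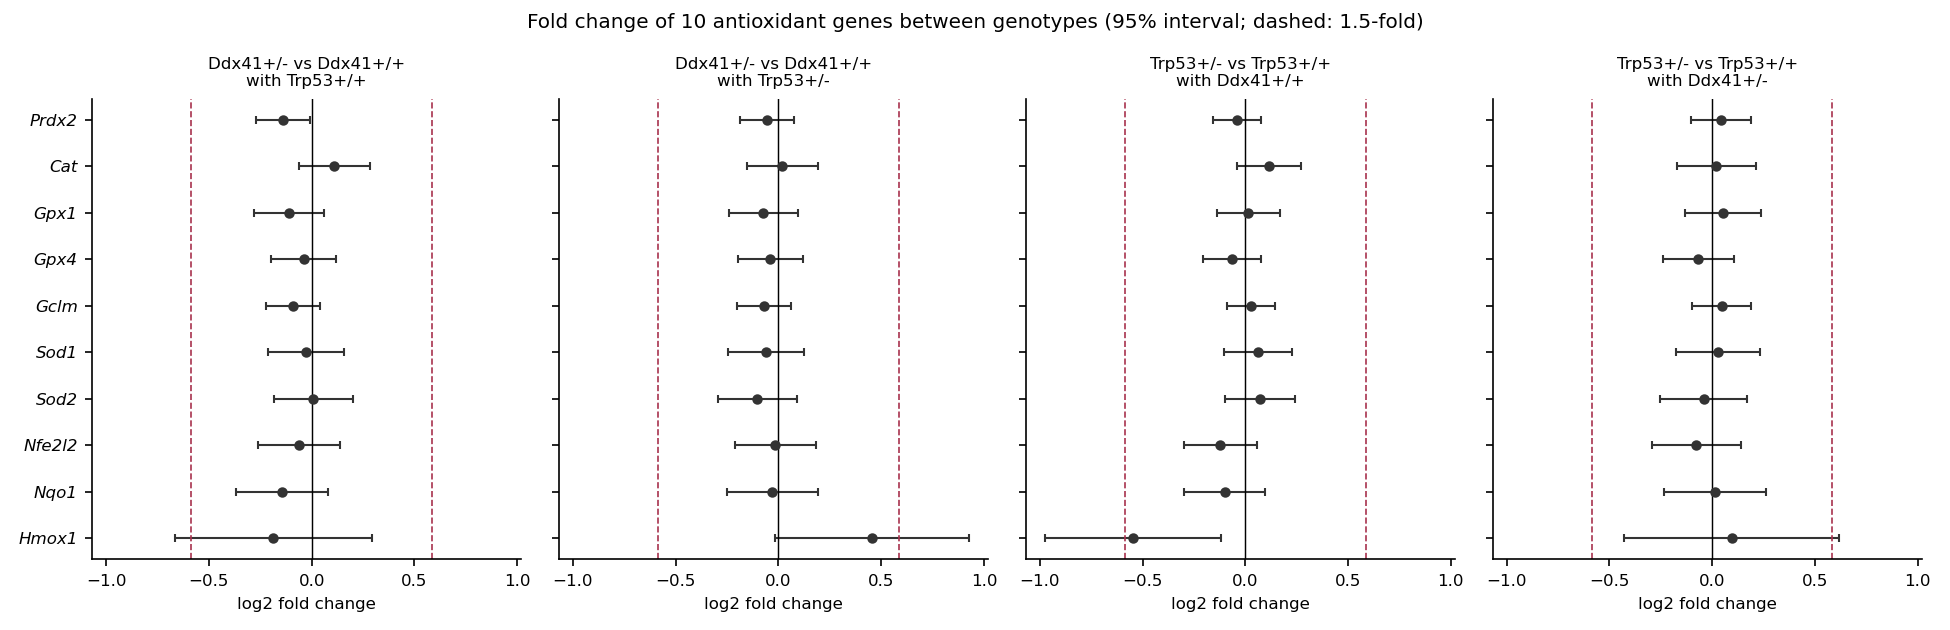
Log2 fold change of each antioxidant gene between genotypes that differ in 1 gene (horizontal axes), with 95% intervals from edgeR's quasi-likelihood fit and dashed lines at 1.5-fold. The intervals of 9 genes lie inside the dashed lines in all 4 panels, and those of Hmox1 reach past them in each, with estimates of −0.19, 0.45, −0.55 and 0.09.

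The macrophage markers moved with Hmox1 as a sum, though not each of them between every pair of mice. Their summed level was 625.5, 334.8 and 562 CPM in the Ddx41+/+ Trp53+/+ mice, 409.9 and 515.6 in the Ddx41+/- Trp53+/+ mice, 375, 331.3 and 274 in the Ddx41+/+ Trp53+/- mice, and 543.8 and 427 in the Ddx41+/- Trp53+/- mice. In each of the 4 genotypes, the mice had the same order for Hmox1 as for this sum. Over the 10 mice, Hmox1 had a Pearson's r of 0.935 and a Spearman's rho of 0.83 with the sum, an r of 0.92 for deviations from the genotype means, and an r of 0.868 without the 2 mice farthest from the median. These are descriptions over libraries that share scaling to their totals. All 14 macrophage markers were in the table, of which Csf1r reached 43.25 to 122.3 CPM, Vcam1 43.89 to 109.6, Adgre1 16.53 to 35.39 and Timd4 0.309 to 2.798, and Marco was at 0 to 6 counts. From mouse 32 to mouse 34 Hmox1 rose, and so did Adgre1, C1qa, C1qb, C1qc, Cd5l, Cd68, Mrc1, Spic and Vcam1. Csf1r (83.7 to 73.41 CPM), Cd163 (17.58 to 12.83), Fcgr1 (9.672 to 5.461), Timd4 (2.798 to 2.413) and Marco (2 to 0 counts) fell. The 3 genes whose log2 CPM was most like that of Hmox1 over the 10 mice were C1qb (r 0.94), a complement gene of that marker list, Trf (r 0.931), the gene of transferrin, and Apoe (r 0.926), the gene of apolipoprotein E. With Hmox1, r was 0.0469 for neutrophil and monocyte, −0.0892 for B cell, −0.139 for T and NK cell and −0.202 for early erythroid progenitor markers. For deviations from the genotype means these were 0.0853, 0.667, 0.587 and 0.4, in the same order. For the other 9 members, r with the macrophage sum lay between −0.723 (Sod2) and 0.349. For deviations from the genotype means, r of these 9 with the macrophage sum lay between −0.519 (Sod2) and 0.796 (Gpx1), with Cat at 0.641. In sorted bulk cells, fewer cells of a type and less RNA per cell cannot be told apart, and the part of macrophage RNA in the values of Hmox1 was not tested.

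**Figure D3:**
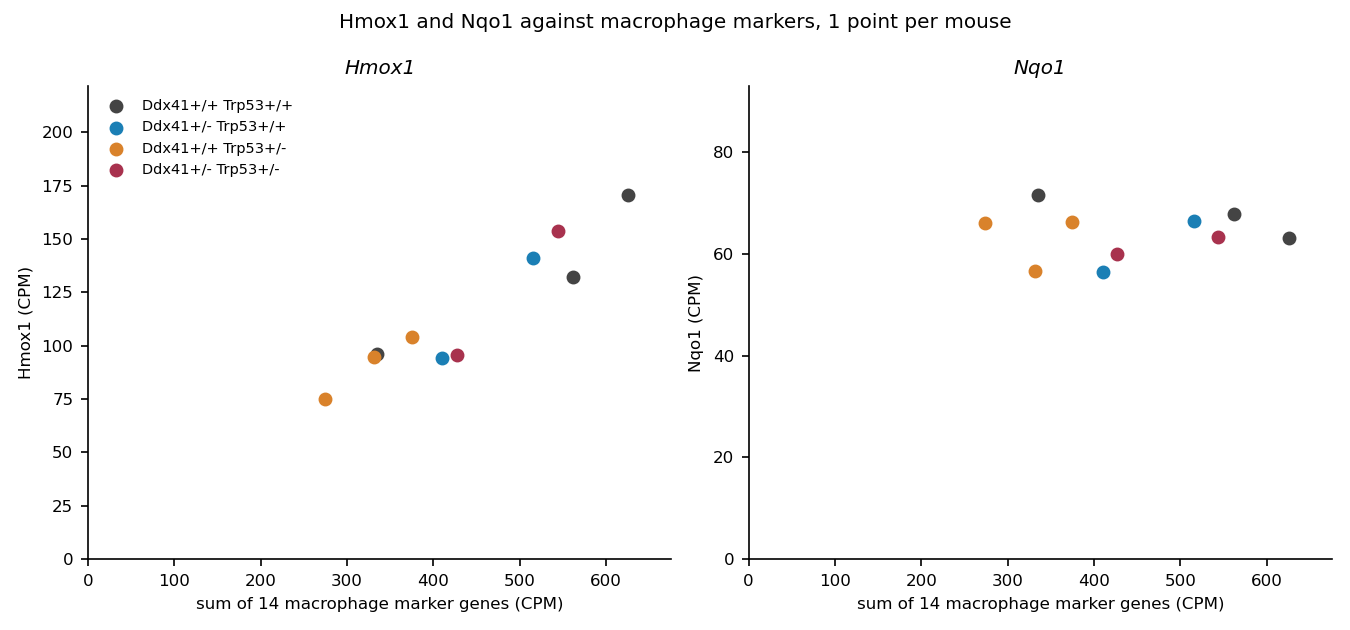
Hmox1 (left) and Nqo1 (right) in CPM against the summed CPM of 14 macrophage markers, 1 point per mouse and colours for genotypes, all axes from 0. Hmox1 rises with the sum, from 74.86 CPM at a sum of 274 to 170.6 CPM at 625.5, and Nqo1 stays between 56.39 and 71.58 CPM.

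The spread between mice set what these libraries could show. The SD of log2 CPM over the 10 mice was 0.0491 for Gclm, 0.0594 for Sod2, 0.068 for Gpx4, 0.0681 for Prdx2, 0.0872 for Nfe2l2, 0.0953 for Sod1, 0.0996 for Gpx1, 0.101 for Cat, 0.112 for Nqo1 and 0.382 for Hmox1. The median over members, 0.0913, was below that of all tested genes (0.209) and close to that of the 3239 genes with a mean of at least 50 CPM (0.101). Of those 3239 genes, 1.61% had a smaller SD than Gclm, 5.34% than Sod2, 11.2% than Gpx4, 11.3% than Prdx2 and 32.2% to 62.1% than Nfe2l2, Sod1, Gpx1, Cat and Nqo1. For Hmox1 it was 98.7%. The median absolute log2 fold change between Ddx41+/- and Ddx41+/+ with Trp53+/+ was 0.1002 for members, 0.1495 for all tested genes and 0.0782 for genes of at least 50 CPM. Between Trp53+/- and Trp53+/+ with Ddx41+/- it was 0.0442 for members and 0.0758 for genes of at least 50 CPM, so the members were above such genes in one comparison and below them in another. The members did not move as 1 group between mice, with r between pairs of members from −0.533 to 0.733 and a median of 0.201 over 45 pairs.

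**Figure D4:**
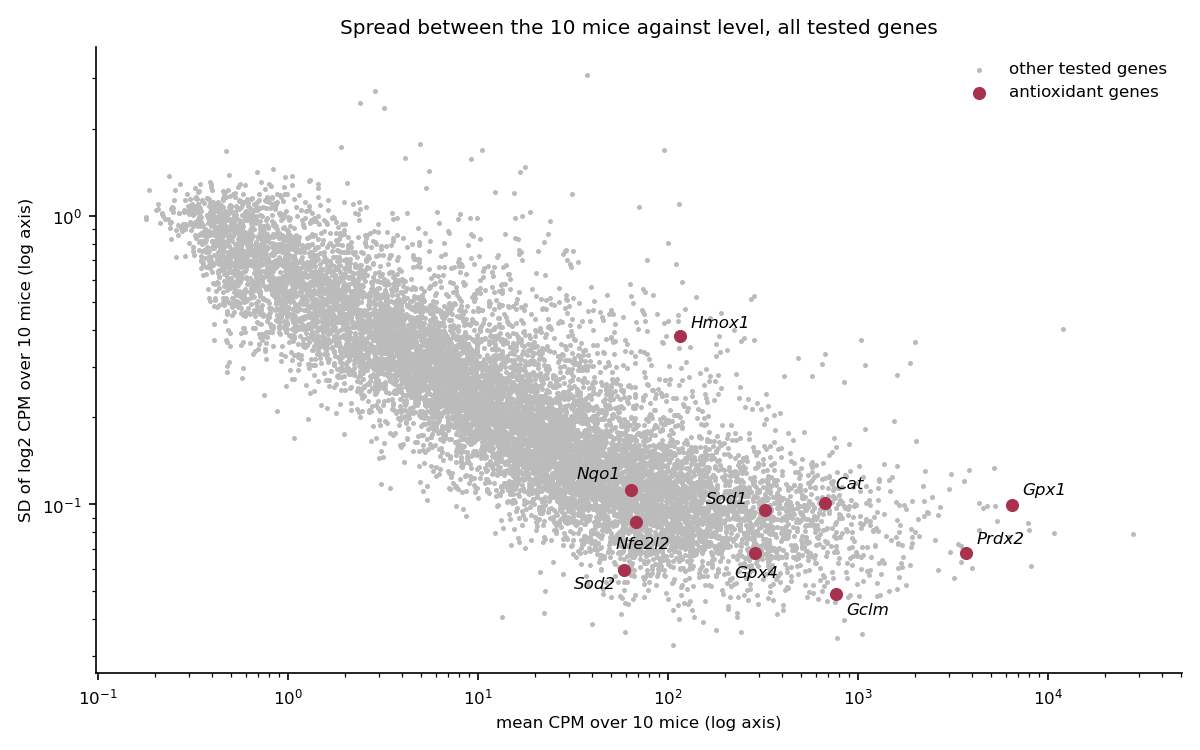
SD of log2 CPM over the 10 mice (vertical, log axis) against mean CPM (horizontal, log axis) for all 11846 tested genes in grey and the antioxidant genes in red. Hmox1 lies above the bulk of genes at its level (SD 0.382), and the other 9 lie lower, from 0.0491 to 0.112.

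The genes most like each of the other members over the 10 mice were named by the highest r of log2 CPM. They were Fam210b for Prdx2 (r 0.965), Trim35 for Cat (0.971), Prodh for Gpx1 (0.9), Pelp1 for Gpx4 (0.988), Stim1 for Gclm (0.953), Pdlim1 for Sod1 (0.941), Cdkn2d for Sod2 (0.941), 2900097C17Rik for Nfe2l2 (0.946) and Gemin7 for Nqo1 (0.93). No member was among the 3 genes most like another member. With 10 mice and 11846 genes such values are a description only.

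Prdx2, Hmox1 and Nqo1 lie on chromosome 8, and the tested genes near them were counted. Of 78 tested genes within 5 Mb of Prdx2, 6 (7.69%; Clgn, Gcdh, Neto2, Phkb, Prkaca and Tbc1d9) were called between Ddx41+/- and Ddx41+/+ with Trp53+/+, and 5 (6.41%) between the Trp53 genotypes with Ddx41+/-, where the shares over all tested genes were 0.54% and 0.169%. Of 95 tested genes within 5 Mb of Hmox1, 4 (4.21%) were called in the first of these comparisons. Of 100 tested genes within 5 Mb of Nqo1, 0 were called in any of the 8 comparisons. The part of these neighbourhoods in the values of Prdx2 and Hmox1 was not tested.

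Of 111 further genes of the antioxidant system in 8 lists, 90 could be tested. With Ddx41+/- and Trp53+/+, 1 of 90 was called higher (as were 0.38% of all tested genes) and 0 lower. With Ddx41+/- and Trp53+/-, 0 of 90 were called. Between the Trp53 genotypes, 2 of 90 were higher with Ddx41+/+ (as were 0.844% of all tested genes) and 0 lower, and 0 of 90 were called with Ddx41+/-. With both alleles lost, 2 of 90 were higher (as were 0.996% of all tested genes) and 0 lower. In the pooled comparisons, 1 of 90 was higher for Ddx41 (0.076% of tested genes) and 1 of 90 for Trp53 (0.245%), and 0 were lower. The genes that passed were Maff, Bach2 and Nnt. By list, 0 of 15 peroxiredoxin and thioredoxin genes, 0 of 22 glutathione genes, 0 of 12 other NRF2 targets and heme breakdown genes, 0 of 6 selenoprotein synthesis genes, 0 of 5 p53 targets with antioxidant roles and 0 of 7 ferroptosis genes were called in any comparison. The median log2 fold change of all 90 with the pooled Ddx41 comparison was −0.022, beside 0.00044 over all tested genes.

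Maff encodes 1 of the small MAF proteins, the partners with which NRF2 and BACH factors bind antioxidant response elements. Mafk, another small MAF gene of the lists, was not called in any comparison. With raw library totals its group means ran from 257.7 to 313.5 CPM, far above the levels of Maff. Maff was at 1.951, 1.166 and 2.075 CPM in Ddx41+/+ Trp53+/+ mice, 5.596 and 3.937 in Ddx41+/- Trp53+/+ mice, 2.7, 3.337 and 2.387 in Ddx41+/+ Trp53+/- mice, and 5.054 and 6.168 in Ddx41+/- Trp53+/- mice, from 24 to 110 counts per library. All Ddx41+/- mice were above all Ddx41+/+ mice, and these groups did not overlap for 1.57% of all tested genes. The log2 fold change was 1.496 with Trp53+/+ (SE 0.325, adjusted p = 0.0493), 1.24 pooled (SE 0.224, adjusted p = 0.0402) and 1.71 with both alleles lost (SE 0.314, adjusted p = 0.0124), and with Trp53+/- it was 1.00 (SE 0.309, adjusted p = 1). The first of these lost its call in 9 of the 10 fits that left out 1 mouse, and the pooled one in 9 of 10, with adjusted p up to 0.513 and 0.292, both without mouse 32. The third lost its call without either Ddx41+/- Trp53+/- mouse (adjusted p 0.0699 without mouse 46 and 0.138 without mouse 47) and, at the threshold itself, with only the genotypes compared (0.05). The element's letters were held by 12.4% of all promoters. The promoter of Bach2 held no match, that of Srxn1 held 1, and no promoter of Nnt was found. Of the 3 RefSeq promoters of Maff, 1 held the element's letters, which are shown in capitals because Maff was the gene of the lists called in most comparisons.
Maff, chr15:79346483-79346543, plus strand, first capital 112 bases before the start: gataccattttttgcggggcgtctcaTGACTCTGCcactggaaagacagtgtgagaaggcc

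Bach2 encodes a repressor that competes with NRF2 for these elements and is known above all for its role in B lymphocytes. Bach2 was at 9.703, 2.721 and 8.924 CPM in Ddx41+/+ Trp53+/+ mice, 13.08 and 23.11 in Ddx41+/- Trp53+/+ mice, 22.7, 20.83 and 25.26 in Ddx41+/+ Trp53+/- mice, and 22.08 and 21.81 in Ddx41+/- Trp53+/- mice. The controls were below all other mice. Against the controls, the groups did not overlap for 14.1% of tested genes with Trp53+/-, 24.9% with Ddx41+/- and 28.3% with both alleles lost. The log2 fold change was 1.71 with Trp53+/- (SE 0.311, adjusted p = 0.0126; 0.0613 without mouse 24), 1.64 with both alleles lost (SE 0.334, adjusted p = 0.0207; 0.18 without mouse 46, 0.131 without mouse 47 and 0.0794 with only the genotypes compared) and 1.33 with Ddx41+/- (SE 0.348, adjusted p = 0.112), each against the controls. The sum of the 11 B cell markers, all in the table, moved with it: 98.35, 49.23 and 98.71 CPM in the controls, 125.4 and 197.1 in Ddx41+/- Trp53+/+ mice, 179.3, 170.4 and 214.9 in Ddx41+/+ Trp53+/- mice, and 194.4 and 170.2 in Ddx41+/- Trp53+/- mice. The r between Bach2 and this sum was 0.993 over the 10 mice, and 0.983 without the 2 mice farthest from the median. With the T and NK cell sum it was 0.929, and with the early erythroid progenitor sum 0.892 (0.862 and 0.523 without the 2 farthest mice). The part of B cell RNA in the values of Bach2 was not tested.

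Nnt encodes the nicotinamide nucleotide transhydrogenase of the inner mitochondrial membrane, a source of NADPH for glutathione and thioredoxin reduction. Nnt was at 5.01, 5.345 and 6.779 CPM in Ddx41+/+ Trp53+/+ mice, 3.771 and 4.064 in Ddx41+/- Trp53+/+ mice, 11.1, 13.41 and 13.85 in Ddx41+/+ Trp53+/- mice, and 8.482 and 7.794 in Ddx41+/- Trp53+/- mice. All Trp53+/- mice were above all Trp53+/+ mice, and these groups did not overlap for 2.01% of all tested genes. The pooled log2 fold change was 1.13 (SE 0.14, adjusted p = 0.000664). It was 1.17 with Ddx41+/+ (SE 0.182, adjusted p = 0.00417) and 1.06 with Ddx41+/- (SE 0.241, adjusted p = 0.125), and both called values kept their call in all 10 fits that left out 1 mouse. Within Trp53+/- mice the Ddx41+/- pair lay below the Ddx41+/+ mice (log2 fold change −0.66, SE 0.201, adjusted p = 1). The sum of 6 early erythroid progenitor markers was also higher in all Trp53+/- mice (53.22 to 61.7 CPM) than in all Trp53+/+ mice (31.68 to 49.81 CPM). Myb alone made 13.07 to 34.17 CPM of it. Over the 10 mice, Nnt had an r of 0.661 and a rho of 0.842 with this sum, and an r of 0.504 for deviations from the genotype means. The parts of erythroid stage and of strain background in the values of Nnt were not tested.

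Srxn1, the gene of sulfiredoxin, which reactivates hyperoxidised peroxiredoxins and is an NRF2 target, was chosen after its values were seen. Srxn1 was at 32.43, 37.61 and 47.38 CPM in Ddx41+/+ Trp53+/+ mice, 32.06 and 40.13 in Ddx41+/- Trp53+/+ mice, 29.5, 23.67 and 25.73 in Ddx41+/+ Trp53+/- mice, and 26.84 and 25.85 in Ddx41+/- Trp53+/- mice. All Trp53+/- mice were below all Trp53+/+ mice, groups that did not overlap for 2.01% of all tested genes. The pooled log2 fold change of −0.52 (SE 0.107, adjusted p = 0.0405) was under the limit of 1.5-fold. With the sum of early erythroid progenitor markers, Srxn1 had an r of −0.568 and a rho of −0.697 over the 10 mice. For deviations from the genotype means this r was 0.395. The part of erythroid stage in the values of Srxn1 was not tested. Gsta4, a glutathione transferase, was named by the rule that takes genes without overlap. It did not overlap between the Trp53 genotypes with Ddx41+/-, as was so for 37.3% of tested genes. Gsta4 was at 0.997 ± 0.206 CPM with Trp53+/+ and 0.46 ± 0.254 CPM with Trp53+/- (SD, n = 2 each). At this level near 1 CPM the log2 fold change of −1.08 had an SE of 0.889 (adjusted p = 0.959).

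**Figure D5:**
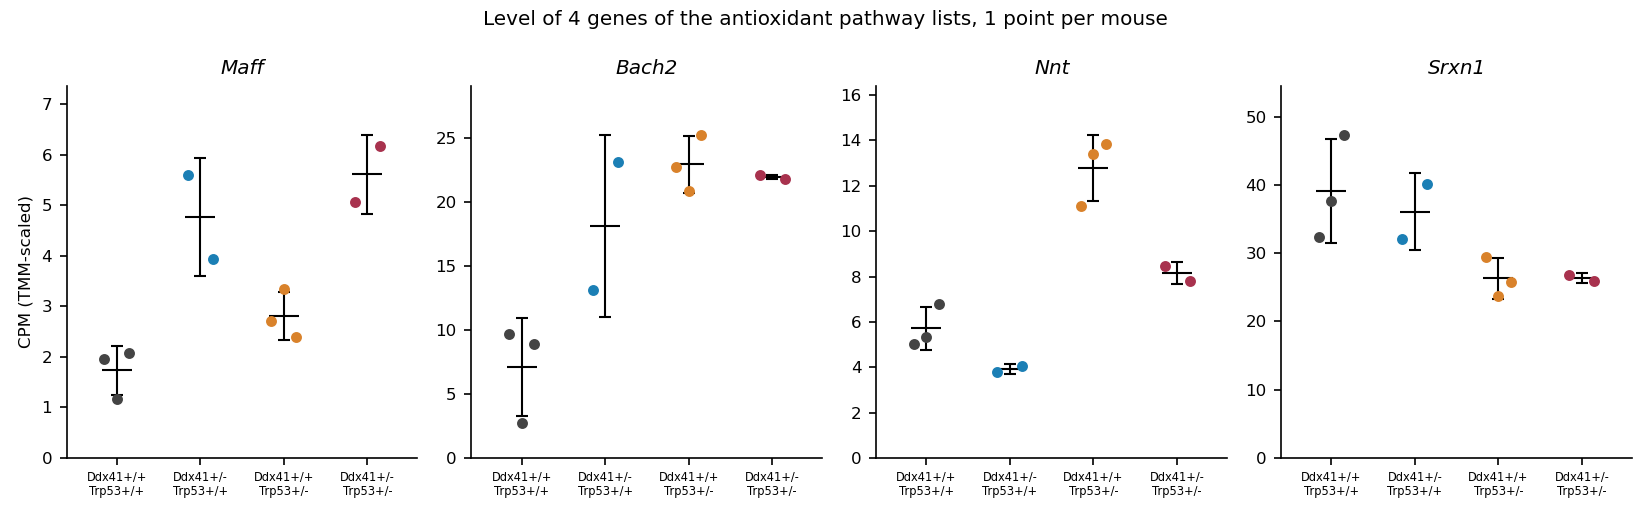
Level of Maff, Bach2, Nnt and Srxn1 in CPM (vertical axes from 0, 1 scale per gene) by genotype, with 1 point per mouse and black bars for the mean and SD. Maff is higher in all Ddx41+/- mice (3.937 CPM and above), Nnt is higher (7.794 CPM and above) and Srxn1 lower (29.5 CPM and below) in all Trp53+/- mice, and Bach2 is lowest in the controls (9.703 CPM and below).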

How the data were processed

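For 10 libraries the authors deposited a table of raw counts of reads for each gene symbol, not normalized. Per the labels, a stranded TruSeq mRNA kit was used, whereas the study's methods name TruSeq RNA v2. The submitters' processing notes name FastQC 0.11.7, HISAT2 2.0.5, featureCounts 1.5.2 and mm10. The strand setting, the annotation and the reason why mice 35 and 45 were left out are not given in the sources used here. The labels give no batch.

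The analysis used edgeR 4.0.16 (R 4.3.3): filtering by genotype (11846 of 24421 genes kept), TMM scaling, and a quasi-likelihood fit of all 10 libraries with 1 mean per genotype, or an additive fit for pooled comparisons. Two-sided p-values were adjusted over all tested genes (Benjamini-Hochberg), and a gene was called at an adjusted p under 0.05 and a fold change over 1.5. SE was the log2 fold change over the root of F, and 95% intervals used the fit's degrees of freedom. Log2 CPM had a prior count of 2. Alternatives were DESeq2 1.42.0, its size factors, a likelihood ratio test, other filters, no fold limit, only the genotypes compared, raw totals and each mouse left out. Of the further pathway genes, those called were named, with the 2 largest per comparison of 1 gene among those without overlap. The members and lists were chosen with earlier results of these data known. The fit was also run on simulated data, and the outcome of that run is not given here. The precision rests on 2 or 3 mice per genotype.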

Additional observations from a re-analysis of the deposited data

How the results depend on the processing

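The count of members called stayed at 0 in 132 of 133 alternatives over the 8 comparisons. Without a filter on low counts it rose to 1 for the interaction, where Hmox1 was called. In that fit, which took in 16135 genes, the spread of Hmox1 was set to the trend over all genes (0.7231, against 3.872 with the filter), so the differences between its mice did not enter. There Hmox1 also had an adjusted p of 1.13e-07 between the Trp53 genotypes with Ddx41+/+, at a fold change under the limit. No paired analysis was possible because the groups share no replicate numbers.

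Of 1330 alternative values of the members' log2 fold changes, 1273 kept their direction and stayed uncalled, 1 gained a call and 56 turned in sign, none of them a called value. For the interaction of Gpx4 the log2 fold change was −0.0020, and 0.0017 with DESeq2's size factors, 0.0028 with DESeq2, 0.0017 without a filter and 0.0057 with at least 10 counts in every library. For Sod1 with both alleles lost it was 0.00014, and −0.0012 without a filter. With each mouse left out in turn, these further estimates crossed 0. For Ddx41+/- against Ddx41+/+ with Trp53+/+ it ran from −0.082 to 0.0017 for Gpx4, −0.50 to 0.083 for Hmox1, −0.16 to 0.021 for Nfe2l2, −0.13 to 0.071 for Sod1 and −0.035 to 0.051 for Sod2. For Ddx41+/- against Ddx41+/+ with Trp53+/- it ran from −0.016 to 0.055 for Cat, −0.068 to 0.00083 for Gpx4, −0.037 to 0.021 for Nfe2l2 and −0.10 to 0.022 for Nqo1. For Trp53+/- against Trp53+/+ with Ddx41+/+ it ran from −0.063 to 0.064 for Gpx1 and −0.014 to 0.12 for Sod1. For Trp53+/- against Trp53+/+ with Ddx41+/- it ran from −0.032 to 0.15 for Gpx1, −0.29 to 0.41 for Hmox1, −0.15 to 0.026 for Nfe2l2, −0.097 to 0.13 for Nqo1 and −0.067 to 0.14 for Sod1. For Ddx41+/- Trp53+/- against the controls it ran from −0.48 to 0.22 for Hmox1, −0.078 to 0.053 for Sod1 and −0.075 to 0.015 for Sod2. For the interaction it ran from −0.0024 to 0.055 for Gclm, −0.046 to 0.14 for Gpx1, −0.036 to 0.049 for Gpx4, −0.029 to 0.15 for Nfe2l2 and −0.13 to 0.079 for Sod1. For the pooled Ddx41 comparison it ran from −0.084 to 0.32 for Hmox1 and −0.063 to 0.0034 for Nfe2l2. For the pooled Trp53 comparison it ran from −0.0080 to 0.058 for Gpx1, −0.025 to 0.017 for Prdx2 and −0.0031 to 0.043 for Sod2.

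The number of genes called over the whole table depended more on the setting: 64 between the Ddx41 genotypes with Trp53+/+ became 131 with DESeq2, 243 without a filter and 13 to 103 with 1 mouse left out (13 without mouse 34); 108 between the Trp53 genotypes with Ddx41+/+ became 160, 250 and 35 to 115 (35 without mouse 24); and 131 with both alleles lost became 184, 284 and 31 to 159 (31 without mouse 46). The calls of pathway genes were lost in 28 of 117 alternatives, all of Maff or Bach2. Of these, Maff with Ddx41+/- and Trp53+/+ had an adjusted p of 0.0502 with DESeq2's size factors and 0.171 with only the genotypes compared, and Bach2 with both alleles lost 0.0767 with DESeq2. With raw totals in place of TMM, 35 of 40 group means of the members moved by less than the SD of their mice. Depth limited the members little, since the lowest count of a member in a library was 469; it limited Maff, at 24 to 110 counts.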
